A study of Mus musculus with 39 samples.

Results

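Monocytes sorted from the bone marrow of mice kept for 4 h without food were compared with monocytes from mice that kept their food, over all genes measured. The 8 libraries were chosen by their labels, 4 named for the 4 h fast and 4 named for food over the same 4 h, out of 39 libraries in the series. All 8 came from C57BL/6 mice of 8 to 12 weeks with no allele named, and the cells were isolated by FACS sorting. The food group had food and water freely available. In the fast group food was taken out of the cage, the bedding was changed and water stayed available, so food removal and the change of bedding cannot be told apart. The labels give neither the time of day nor the gate of the sort, and they leave unsaid whether each library is its own animal. The p-values therefore measure the spread between these libraries, which may be technical. The series asks how food intake acts on circulating monocytes, and a set of 7 marrow libraries after 17 h with food (3) or without it (4) was the experiment most like this one.

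Classical monocytes are made in the marrow, leave it by way of the chemokine receptor CCR2 and serve inflamed tissue. A fast lowers insulin and raises glucocorticoid hormone in rodents. The hormone binds the glucocorticoid receptor, which enters the nucleus and turns on a set of genes that dampen signalling, among them Tsc22d3 and Fkbp5. Cholesterol synthesis is set by SREBP2, a membrane-bound factor that is released when sterols are low and acts on sterol regulatory elements together with NF-Y, a factor that binds CCAAT boxes.

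The sort held monocyte RNA. Some of the 26 classical monocyte genes tested were high in all 8 libraries and others were not. Lyz2, which encodes lysozyme, lay between 57364 and 78476 TPM, and Ccr2 between 1684 and 2177 TPM. Cd14 lay at 21.9 to 40.1 TPM and Vcan at 14.5 to 60.0 TPM, where the median gene of a library lay at 35.7 to 39.0 TPM. TPM is the share of a transcript in its library after correction for its length. Read numbers are unstated in the sources used here, and the depth of each library is therefore unknown. Some markers of other cells were low and others were not. Of the 4 B cell genes tested, Cd79a lay at 2.08 to 6.57 TPM and Ighm at 563 to 951 TPM. Of the 13 neutrophil genes tested, Camp and Ngp lay at or below 11.9 TPM, while Mmp8 lay at 182 to 393 TPM and Csf3r at 189.9 to 239.7 TPM. Of 20 T and NK cell markers, 1 was among the genes analysed. Early myeloid transcripts were present in every library, with Elane, a protease of granule-forming precursors, between 524.96 and 985.5 TPM.

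Libraries did not fall cleanly by group. Library fast 1 correlated better with the food libraries (mean r = 0.980 across genes, which are not independent replicates) than with fast 2 to 4 (mean r = 0.968). Food 1 to 4 and fast 1 also shared a pattern of zeros. In these 5 libraries 9 genes were listed at 0 that were above 0 in fast 2, 3 and 4, and none showed the reverse. The 9 have short transcripts, with median lengths per gene of 402 to 615 bases. S100a4, which encodes a small calcium-binding protein, was listed at 0 in food 1 to 4 and fast 1 and stood at 269, 336 and 182 TPM in fast 2 to 4. The histone gene Hist1h2ap followed it, listed at 0 in the first 5 libraries and at 358, 413 and 406 TPM in fast 2 to 4. What sets these 5 libraries apart from the other 3 was not tested. Results are therefore given with and without fast 1, and with the position of fast 1 relative to the food libraries.

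At 4 h, 40 of 9428 tested genes were called, which is 0.424%, with 25 higher (0.265%) and 15 lower (0.159%) in the fast group. Calls rest on limma at a Benjamini-Hochberg adjusted p under 0.05. At an unadjusted p under 0.05, 474 genes were higher (5.03%) and 994 lower (10.5%). For 8.81% of genes no fast library overlapped a food library, and the median log2 fold change of all genes was -0.07. Without fast 1, 145 genes were called (1.54%), 90 higher and 55 lower, and all 40 were among them. With fast 1 as the only fast library 6 genes were called, among them Fpr2 and Fkbp5 of the 40. After libraries were centred on their median the split was 23 higher and 8 lower, and after quantile normalization 23 and 10. After the trend on transcript length was removed it was 25 and 6.

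**Figure D1:**
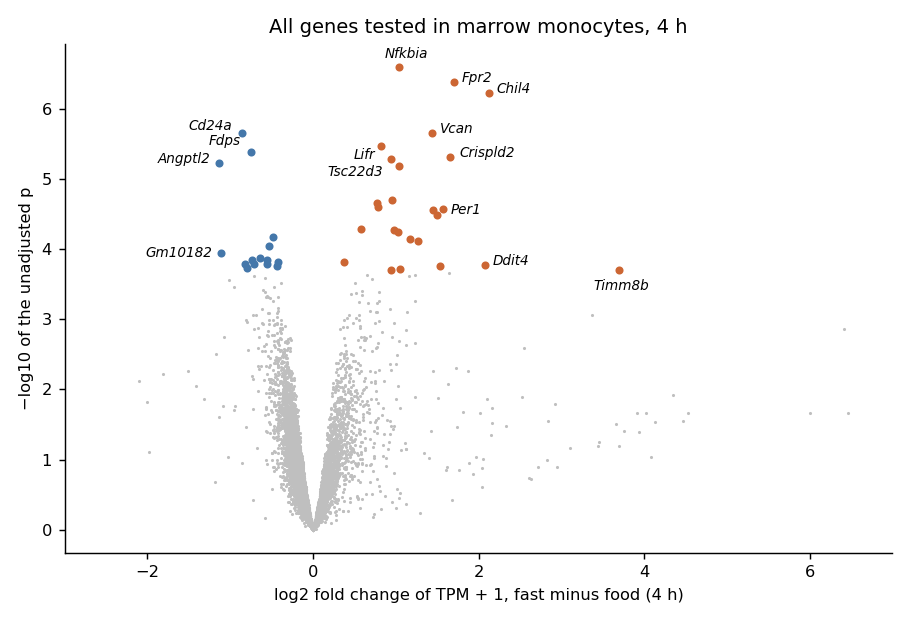
Each point is a gene, with the log2 fold change of TPM + 1 (fast minus food) on the horizontal axis and the -log10 of the unadjusted limma p on the vertical axis. The 25 genes called higher are orange and the 15 called lower are blue, and grey points far to the right with low vertical positions include genes listed at 0 in the food libraries, such as S100a4.

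Genes known to be induced by glucocorticoids had more called members than any other of the 54 lists read. This and the other lists were chosen with earlier results of these data known, so their counts and shares describe and do not test them. Of 26 tested members, 7 rose and 0 fell, against 0.265% and 0.159% of all genes. The 7 were Ddit4, Per1, Dusp1, Fkbp5, Tsc22d3, Nfkbia and Klf9, and the same number was called without fast 1. The median of the list was 0.18, beside -0.07 for all genes. Fast libraries lay above all food libraries for 10 of the 26 members and below them for 1, against 2.44% and 6.37% of all genes. Fast 1 alone lay above all food libraries for 15 of the 26 (57.7%, against 16.1% of all genes).

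Some of these called genes encode brakes on signalling. Tsc22d3, which encodes the glucocorticoid-induced leucine zipper, stood at 318, 292, 374 and 458 TPM in food 1 to 4 and at 646, 809, 695 and 796 TPM in fast 1 to 4. Every fast library was above every food library. The log2 fold change was 1.04 (SE 0.13, adjusted p = 0.0055). Nfkbia, which encodes the inhibitor that holds NF-kB in the cytoplasm, stood at 159, 147, 173 and 184 TPM with food and at 293, 339.7, 368 and 365 TPM without it. The groups were apart, and the difference was 1.04 (SE 0.10, adjusted p = 0.0019). Dusp1, a phosphatase that switches off MAP kinases, stood at 22.9, 11.6, 13.6 and 20.7 TPM with food and at 33.9, 49.2, 48.9 and 75.1 TPM without it. Fast 1 was the lowest fast library and still above all food libraries (log2 fold change 1.53, SE 0.26, adjusted p = 0.046). Other feedback genes did not rise as a set. Of 20 NF-kB subunits and feedback genes tested, 1 was called higher, against 0.265% of all genes, and 16 lay below 0 (median -0.08). Of 17 STAT and SOCS feedback genes tested, 0 were called and 15 lay below 0 (median -0.19, beside -0.07 for all genes).

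Fkbp5, a co-chaperone that lowers the receptor's affinity for hormone and so closes a feedback loop, stood at 24.3, 26.8, 26.8 and 21.6 TPM with food and at 69.0, 48.1, 40.0 and 80.0 TPM without it. Here fast 1 was the second highest library of all. The log2 fold change was 1.17 (SE 0.19, adjusted p = 0.030), and with fast 1 as the only fast library it was 1.44 (adjusted p = 0.025). Ddit4, an inhibitor of the growth kinase mTORC1, rose from 3.64, 5.97, 5.80 and 12.7 TPM to 23.1, 22.2, 35.7 and 45.5 TPM (by 2.08 on the log2 scale, SE 0.34, adjusted p = 0.046). The clock gene Per1 rose from 7.07, 9.02, 5.60 and 7.38 TPM to 19.2, 15.4, 27.8 and 35.3 TPM (by 1.57, SE 0.23, adjusted p = 0.016). The transcription factor Klf9 rose from 6.62, 9.47, 6.72 and 6.90 TPM to 12.4, 12.0, 16.9 and 20.5 TPM (by 0.95, SE 0.18, adjusted p = 0.047). For all 3 genes the groups did not overlap.

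**Figure D2:**
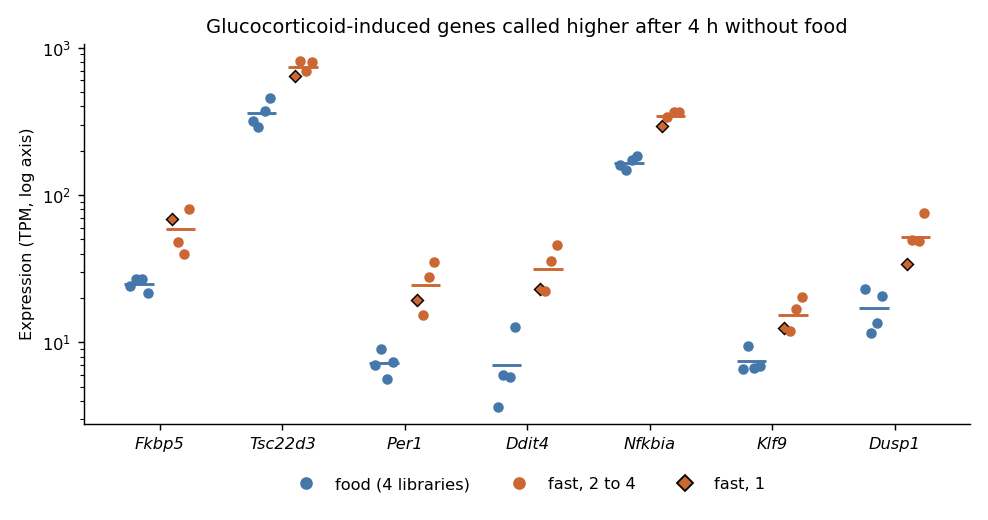
TPM on a log axis for the 7 glucocorticoid-induced genes called higher, with 1 point per library, food in blue and fast in orange, and short lines at group means. The diamond is fast 1, which lies above all 4 food libraries for each of the 7 genes.

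Other members of the list did not pass, and of the 26 tested, 18 lay above 0 and 8 below. Cd163, also among the macrophage markers, went the other way without overlap. It was at 5.53 to 7.12 TPM with food and 3.75 to 4.97 TPM without it. Zbtb16, a transcription factor, was at 3.25 to 3.83 TPM with food and 4.95 to 10.4 TPM without it (a log2 difference of 0.76, SE 0.20, adjusted p = 0.14). Txnip, an inhibitor of glucose uptake that insulin also restrains, was at 619.5 to 728 TPM with food and 729.9 to 810.5 TPM without it (0.18, SE 0.08, adjusted p = 0.29). Cxcr4, the receptor that holds leukocytes in marrow, was at 122 to 159.7 TPM and 133 to 212 TPM, with overlapping groups (0.29, SE 0.14, adjusted p = 0.35). Nr3c1, the receptor gene itself, was at 125 to 137 TPM with food and 116 to 128 TPM without it (-0.09, SE 0.07, adjusted p = 0.56). Of the 7 calls, 5 depended on single libraries. Left out one at a time, food 1 to 4 left 4, 3, 2 and 5 of the 7 called and fast 2 to 4 left 4, 3 and 4, with the highest adjusted p of the 7 at 0.165. Tsc22d3 and Nfkbia were called in each of these fits.

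Per1 was the 1 called gene of 10 tested clock genes, and Ddit4 the 1 of 29 tested genes of mTORC1 and nutrient sensing. Of all genes, 0.265% were called higher and 0.159% lower. Of 21 FOXO targets and insulin signalling genes, 1 rose and 0 fell, against these same shares, at a median of -0.01. At an unadjusted p under 0.05, 3 of the 10, 6 of the 29 and 4 of the 21 were higher, against 5.03% of all genes. Lower were 1, 0 and 3, against 10.5%. The FOXO and insulin list summed to 3365 to 3532 TPM with food and 3707 to 4298 TPM without it, while its mean log2(TPM + 1) overlapped between the groups. Irs2, an insulin receptor adaptor that FOXO induces, was at 10.3 to 14.3 TPM with food and 8.38 to 15.1 TPM without it (-0.01, SE 0.17, adjusted p = 0.98). No gene passed among 28 PPAR targets and fatty acid oxidation genes, nor among 9 AMPK subunits and kinases. At an unadjusted p under 0.05, 2 of the 28 were higher and 2 lower, and of the 9, 0 and 1. The shares of all genes were 5.03% higher and 10.5% lower. Cpt1a, which brings fatty acids into mitochondria, was at 106 to 126 TPM with food and 89.4 to 136 TPM without it (0.02, SE 0.13, adjusted p = 0.93). Prkaa1, a catalytic subunit of AMPK, was at 32.6 to 40.4 and 31.5 to 39.5 TPM (0.00, SE 0.11, adjusted p = 0.9998). Stk11, the kinase upstream of it, was at 23.8 to 27.4 and 18.8 to 25.1 TPM (-0.19, SE 0.12, adjusted p = 0.42).

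Cholesterol genes lay lower after the fast. Of 21 tested members of synthesis and uptake, 4 fell (Fdps, Idi1, Insig1 and Sqle) and 0 rose, against 0.159% and 0.265% of all genes. At an unadjusted p under 0.05, 13 of the 21 were lower, against 10.5% of all genes. The median was -0.51, and 19 of the 21 were below 0. Fast libraries lay below all food libraries for 12 members, against 6.37% of all genes. Fast 1 lay below all food libraries for 14 of the 21 (66.7%, against 21.5% of all genes).

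The promoters of Insig1, Idi1 and Hmgcs1 are shown because these genes fell or lay lower together and carry the CCAAT box of NF-Y. Each runs from 250 bases before to 50 bases after the start site on the strand of the gene (RefSeq, GRCm38.p6). Insig1 lies at chr5:28071162-28071461 (plus strand), Idi1 at chr13:8885356-8885655 (plus strand) and Hmgcs1 at chr13:119690101-119690400 (plus strand). Capitals mark CCAAT on either strand, read here as ATTGG, and, in Hmgcs1, the sterol element TCACCCCAC.
Insig1: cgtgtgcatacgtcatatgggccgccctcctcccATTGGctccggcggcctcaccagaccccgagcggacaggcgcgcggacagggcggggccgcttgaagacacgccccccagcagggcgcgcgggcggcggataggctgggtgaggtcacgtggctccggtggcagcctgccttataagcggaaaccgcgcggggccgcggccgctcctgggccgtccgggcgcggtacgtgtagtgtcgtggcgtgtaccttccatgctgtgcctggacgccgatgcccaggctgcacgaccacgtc
Idi1: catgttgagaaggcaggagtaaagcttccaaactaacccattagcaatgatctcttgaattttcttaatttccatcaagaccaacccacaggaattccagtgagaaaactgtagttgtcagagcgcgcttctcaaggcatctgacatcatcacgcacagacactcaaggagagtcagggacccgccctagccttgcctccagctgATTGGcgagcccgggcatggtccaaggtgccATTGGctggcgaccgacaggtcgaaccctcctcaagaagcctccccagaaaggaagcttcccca
Hmgcs1: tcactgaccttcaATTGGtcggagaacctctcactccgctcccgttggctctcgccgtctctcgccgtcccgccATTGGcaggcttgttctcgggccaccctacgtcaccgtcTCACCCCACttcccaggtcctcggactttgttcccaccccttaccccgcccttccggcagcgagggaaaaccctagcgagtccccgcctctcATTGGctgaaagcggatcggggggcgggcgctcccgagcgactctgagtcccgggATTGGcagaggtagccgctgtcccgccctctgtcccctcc

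In these windows Insig1 holds 1 NF-Y box, Idi1 holds 2 and Hmgcs1 holds 4. On both strands, CCAAT was found in 14 of the 15 cholesterol genes that have a window (93.3%), against 43.9% of the 7282 tested genes that have one. It was also found in 60.9% of genes called higher and 55.6% of genes called lower that have one. Of the 4 called cholesterol genes, Fdps and Sqle have no window. The sterol regulatory element TCACNCCAC was found in Hmgcs1 alone among the 15, at -137 from the start site, against 1.33% of tested genes. The glucocorticoid response element was searched by its spaced inner letters, ACANNNTGT, and by its half-site, TGTTCT. For the 7 glucocorticoid-induced genes called, the spaced letters were found in 0 of 7 (4.63% of tested genes) and the half-site in 1 of 7 (14.9%). Over all 24 tested members of that list with a window, the spaced letters were found in 4 (16.7%) and the half-site in 6. Over 23 genes called higher, the spaced letters were found in 4 (17.4%) and the half-site in 6 (26.1%). The E-box CACGTG, through which the clock acts, was found in 3 of the 7 and 8 of the 24 (12.4% of tested genes), and the cAMP response element TGACGTCA in 1 and 2 (3.94%). These 6 motifs were the only ones searched, and the spaced letters ACANNNTGT can share their last letters with the half-site. A match describes letters in this window, and no match says only that the letters are not in it.

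Along the pathway, Hmgcs1, which makes HMG-CoA, stood at 38.2, 39.6, 33.6 and 41.0 TPM with food and at 31.4, 25.04, 28.6 and 26.7 TPM without it. The groups were apart and the call was missed (log2 fold change -0.43, SE 0.11, adjusted p = 0.12). Idi1, the isomerase of the isoprenoid units, fell from 29.7, 35.8, 23.6 and 33.0 TPM to 18.8, 19.5, 17.2 and 17.0 TPM (-0.71, SE 0.13, adjusted p = 0.046). Fdps, which joins them into farnesyl diphosphate, stood at 162, 171, 144 and 159 TPM with food and at 90.1, 83.5, 103 and 103 TPM without it. Its groups were the furthest apart of the pathway by p (-0.74, SE 0.09, adjusted p = 0.0053), and it was called in 18 of 19 alternative fits. The exception was the fit with fast 1 as the only fast library (-0.81, adjusted p = 0.093).

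Beyond farnesyl diphosphate, Sqle, the epoxidase that starts the sterol branch, fell from 10.6, 14.3, 9.36 and 13.3 TPM to 7.12, 5.59, 6.19 and 6.56 TPM (-0.79, SE 0.15, adjusted p = 0.047). Cyp51, the lanosterol demethylase, was at 18.0 to 26.7 TPM with food and 12.6 to 16.1 TPM without it, without overlap, and just missed the threshold (-0.72, SE 0.14, adjusted p = 0.051). Msmo1, the next oxidase, was at 44.0 to 57.2 and 30.3 to 37.8 TPM (-0.54, SE 0.11, adjusted p = 0.073). Ebp, a late isomerase, lay the other way, at 73.4 to 89.0 and 83.5 to 95.3 TPM (0.14, SE 0.09, adjusted p = 0.43).

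Among regulators, Insig1, which retains the SREBP complex in the endoplasmic reticulum and is itself an SREBP target, fell from 37.3, 41.2, 39.7 and 46.0 TPM to 30.4, 27.6, 25.6 and 26.9 TPM (-0.55, SE 0.10, adjusted p = 0.046). Srebf2, the gene of SREBP2, was at 29.7 to 38.5 TPM with food and 17.7 to 29.5 TPM without it (-0.59, SE 0.16, adjusted p = 0.14). Left out one at a time, food 1, 2 and 4 and fast 2 to 4 each left 1 of the 4 calls and food 3 left 2, with the highest adjusted p at 0.157. Centring or quantile normalization also left 1, Fdps, at adjusted p = 0.0049 and 0.0074. The median of the list stayed between -0.44 and -0.53 with these scalings, with the length trend removed and without fast 1.

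**Figure D3:**
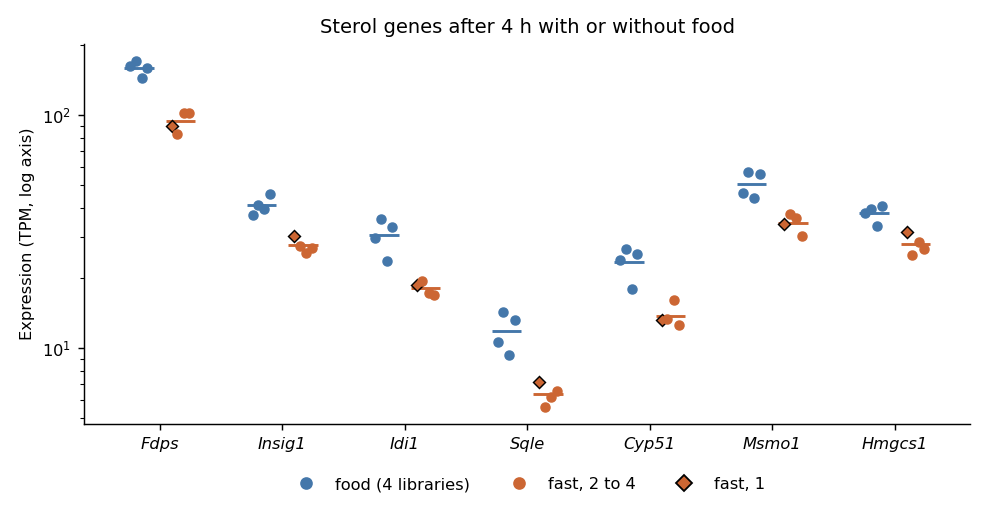
TPM on a log axis for 7 sterol genes, with 1 point per library, food in blue and fast in orange, and short lines at group means. The diamond is fast 1, which lies below all 4 food libraries for each gene shown.

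Genes of monocyte surface and secreted proteins were among the other rises. Of 26 classical monocyte genes tested, 3 rose (Vcan, Chil3 and Hp) and 0 fell, against 0.265% and 0.159% of all genes, at a median of 0.12. Vcan, which encodes the matrix proteoglycan versican, stood at 22.5, 22.9, 16.2 and 14.5 TPM with food and at 40.6, 58.4, 52.6 and 60.0 TPM without it. All fast libraries were above all food libraries (1.44, SE 0.17, adjusted p = 0.0042). Chil3, a secreted chitinase-like protein of monocytes, rose from 4515, 2998, 3472 and 3498 TPM to 8691, 6773, 6453 and 6093 TPM (0.95, SE 0.14, adjusted p = 0.015). Its call was lost when the length trend was removed (adjusted p = 0.22) and without food 3 (adjusted p = 0.058). Its close copy Chil4 rose from 1.30 to 1.97 TPM to 6.65 to 15.8 TPM (2.13, SE 0.22, adjusted p = 0.0019), and reads of the pair may be divided between them in error. Hp, the haemoglobin-binding protein haptoglobin, rose from 974 to 1029 TPM to 1244 to 1377 TPM (0.38, SE 0.07, adjusted p = 0.046).

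Receptors for bacterial and fungal products were among the rises too. Of 25 formyl peptide, Toll-like and related receptors tested, 3 rose (Fpr2, Fpr1 and Clec4e) and 0 fell, against 0.265% and 0.159% of all genes. At an unadjusted p under 0.05, 5 were higher and 6 lower, against 5.03% and 10.5% of all genes, and the median was 0.02. Fast libraries lay above all food libraries for 4 and below for 4, against 2.44% and 6.37% of all genes. Fpr2, a receptor for formylated peptides and for annexin A1, stood at 13.5, 10.6, 10.7 and 11.3 TPM with food and at 41.6, 47.6, 46.8 and 26.7 TPM without it. The lowest fast library, fast 4, was still above the highest food library (1.71, SE 0.17, adjusted p = 0.0019), and the gene was called in all 19 alternative fits. Fpr1, its paralogue, rose from 2.23 to 3.89 TPM to 4.97 to 10.5 TPM (1.27, SE 0.21, adjusted p = 0.032). Clec4e, the Mincle receptor for mycobacterial and fungal glycolipids, rose from 25.1 to 29.6 TPM to 42.5 to 59.8 TPM (0.79, SE 0.12, adjusted p = 0.016).

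In the MS4A family of tetraspan membrane proteins 2 of 9 tested members rose and 0 fell, against 0.265% and 0.159% of all genes. At an unadjusted p under 0.05, 7 of the 9 were higher, against 5.03% of all genes, and the median was 0.34. Ms4a8a stood at 113, 118, 109.97 and 102 TPM with food and at 163, 213, 196 and 217 TPM without it, with no overlap (0.82, SE 0.10, adjusted p = 0.0052). Ms4a4a rose from 229 to 269 TPM to 348 to 525 TPM (0.78, SE 0.12, adjusted p = 0.016). Fast 1 was among the lower fast libraries for both genes and above all food libraries.

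Other called genes of secreted proteins, receptors, transporters and enzymes were Lifr, Ccl6, Sult1a1, Crispld2 and Abca4. Lifr, the receptor of leukaemia inhibitory factor, rose from 12.4 to 14.7 TPM to 22.8 to 31.3 TPM (0.95, SE 0.12, adjusted p = 0.0053). Ccl6, a chemokine of rodent myeloid cells, rose from 1397 to 1571 TPM to 1951 to 2543 TPM (0.58, SE 0.09, adjusted p = 0.027). Sult1a1, a sulfotransferase, rose from 6.47 to 8.19 TPM to 12.9 to 26.3 TPM (1.05, SE 0.20, adjusted p = 0.047). Anapc10 (1.50, adjusted p = 0.018), Nedd8 (1.02, adjusted p = 0.027) and Timm8b (3.70, adjusted p = 0.047) completed the rises named by size. Timm8b, of mitochondrial protein import, was listed at 0 in food 2 to 4 and at 3.41 TPM in food 1.

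**Figure D4:**
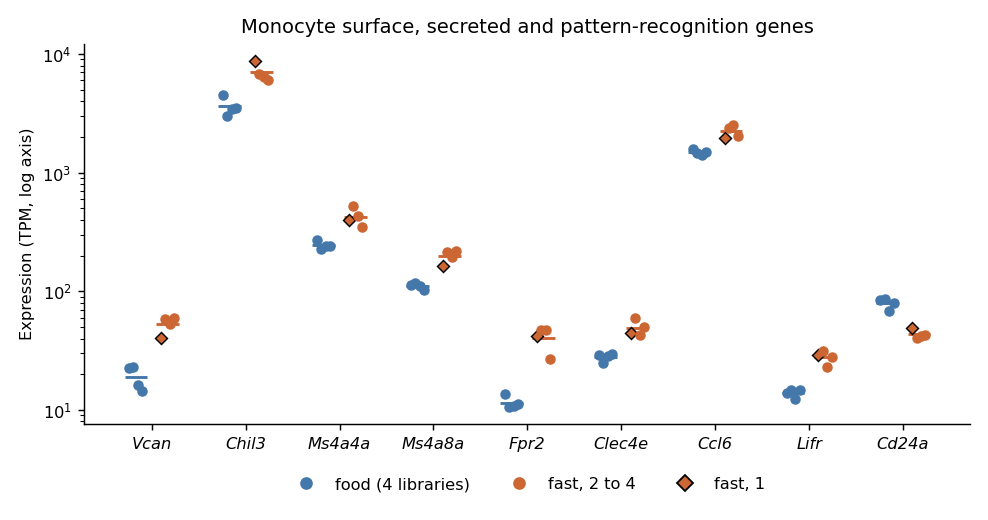
TPM on a log axis for 8 called genes that rose and for Cd24a, which fell, with 1 point per library, food in blue and fast in orange, and short lines at group means. The diamond is fast 1, and no fast library overlaps a food library for any of these genes.

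The other falls were led by Angptl2 and Cd24a. Angptl2, a secreted angiopoietin-like protein, fell from 7.31, 9.91, 10.1 and 11.3 TPM to 4.04, 3.42, 3.76 and 4.01 TPM (-1.13, SE 0.15, adjusted p = 0.0055). Cd24a, a surface glycoprotein that is high on immature blood cells, fell from 83.9, 85.8, 68.2 and 80.1 TPM to 48.9, 40.1, 41.9 and 42.8 TPM (-0.86, SE 0.10, adjusted p = 0.0042). The groups were apart for both. The predicted gene Gm10182 fell from 52.7 to 59.0 TPM to 16.1 to 36.4 TPM (-1.11, SE 0.19, adjusted p = 0.043). Oxct1, which activates ketone bodies for use in mitochondria, fell from 102.5 to 109 TPM to 68.2 to 80.3 TPM (-0.49, SE 0.08, adjusted p = 0.030). Lipa, the lysosomal acid lipase that frees cholesterol from its esters, fell from 152 to 195 TPM to 107 to 138 TPM (-0.56, SE 0.10, adjusted p = 0.046). Hpse, or heparanase (-0.43), the cold-induced RNA-binding protein Rbm3 (-0.42) and Olfm1 (-0.54) fell too, at adjusted p of 0.046, 0.046 and 0.035, as did Lysmd4 (-0.82, adjusted p = 0.046) and Lrrc20 (-0.64, adjusted p = 0.046).

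Of the 40 calls, 11 were kept without each library in turn. They were Chil4, Fpr2, Crispld2, Vcan, Tsc22d3, Nfkbia, Lifr, Ms4a8a, Cd24a, Fdps and Angptl2. The other 29 were lost without at least 1 library, with adjusted p up to 0.181 (Timm8b without food 2). Without food 1 to 4, 23, 14, 13 and 21 of the 40 were called, and without fast 2 to 4, 20, 16 and 21.

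Cell cycle genes lay lower without a call. Of 34 S phase genes, 0 passed and 20 were lower at an unadjusted p under 0.05, against 10.5% of all genes, at a median of -0.27. Of 36 G2 and M phase genes, 0 passed, 21 were lower at an unadjusted p under 0.05 (10.5% of all genes) and the median was -0.24, and without fast 1, 2 were called lower. The mean log2(TPM + 1) of the S phase list was 6.04 to 6.22 with food and 6.00, 5.78, 5.83 and 5.99 in fast 1 to 4, with no overlap. For G2 and M phase it was 7.33 to 7.39 with food and 7.22, 7.01, 7.10 and 7.20 without it. Ccne1, the cyclin of S phase entry, was at 31.2 to 40.3 and 23.1 to 29.5 TPM (-0.47, SE 0.12, adjusted p = 0.13). In bulk RNA, fewer cells of a type and less RNA per cell cannot be told apart.

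By mean log2(TPM + 1), genes of ribosomes and respiration were higher in fast 2 to 4 and not in fast 1. Their summed TPM overlapped between food 1 and fast 4, at 27521 and 26190 TPM for ribosomal proteins and 12663 and 12451 TPM for respiration. Of 73 ribosomal protein genes, 0 passed and 24 were higher at an unadjusted p under 0.05, against 5.03% of all genes. The median of these genes was 0.31, and 0.24 with the length trend removed. Their mean log2(TPM + 1) was 7.26 to 7.92 with food, 7.69 in fast 1 and 8.00 to 8.41 in fast 2 to 4. For 76 nuclear-encoded respiratory chain genes (0 passed, 19 higher at an unadjusted p under 0.05, against the same 5.03%) it was 5.92 to 6.65 with food, 6.38 in fast 1 and 6.76 to 7.09 in fast 2 to 4. The glucocorticoid-induced list did not follow this split, at 4.83 to 4.93 with food, 5.34 in fast 1 and 5.12 to 5.56 in fast 2 to 4. Nor did the cholesterol list, at 4.86 to 5.06 with food, 4.57 in fast 1 and 4.46 to 4.60 in fast 2 to 4.

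**Figure D5:**
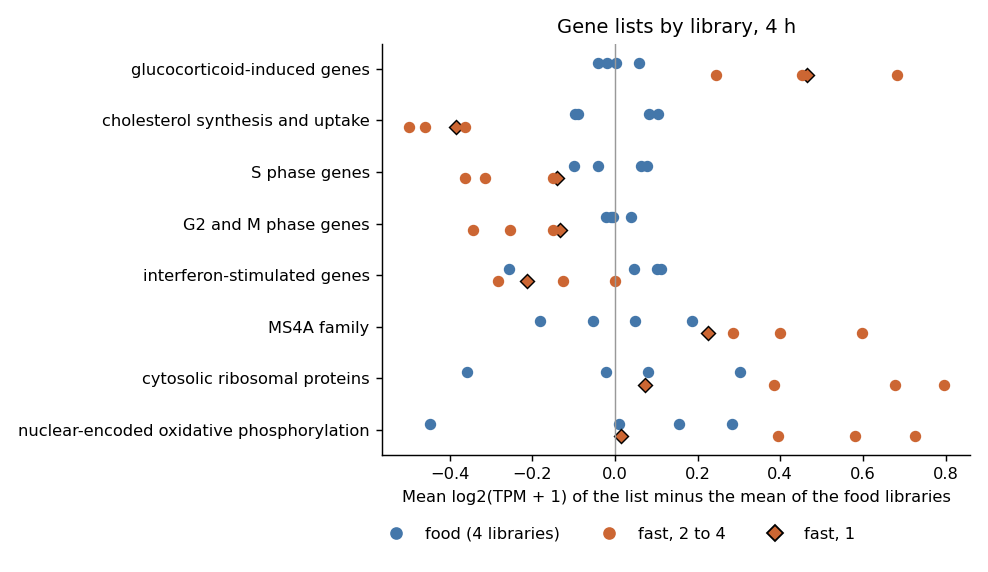
For 8 gene lists, the mean log2(TPM + 1) of each library minus the mean of the 4 food libraries, with 1 point per library. Fast 1 (diamond) lies with fast 2 to 4 for the glucocorticoid-induced and cholesterol lists and among the food libraries for ribosomal proteins and oxidative phosphorylation.

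Of 18 chemokine and traffic receptors tested, the 2 called were the formyl peptide receptors Fpr1 and Fpr2, against 0.265% of all genes called higher. At an unadjusted p under 0.05, 6 of the 18 were higher and 2 lower, against 5.03% and 10.5% of all genes. Above 0 lay 8 and below 0 lay 10, at a median of -0.09. The mean log2(TPM + 1) of the list was 5.265 to 5.39 with food and 5.42 to 5.59 without it, with no overlap. Ccr2 stood at 2053, 2068, 1987 and 2128 TPM with food and at 2077, 2177, 1821 and 1684 TPM without it, with overlapping groups (-0.09, SE 0.09, adjusted p = 0.61). Ly6c2, the surface antigen of classical monocytes, was at 4289 to 6716 and 4882 to 7265 TPM (0.14, SE 0.15, adjusted p = 0.63). Csf1r, the receptor for the monocyte growth factor, was at 478 to 575 and 359.5 to 500.5 TPM (-0.25, SE 0.11, adjusted p = 0.32). The integrin gene Itga4 differed by -0.01 (SE 0.12, adjusted p = 0.98) and the cytokine gene Tnf by -0.48 (SE 0.17, adjusted p = 0.23).

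Nr4a1, the factor that non-classical monocytes depend on, was at 33.2 to 83.5 TPM with food and 17.3 to 35.4 TPM without it (-0.94, SE 0.32, adjusted p = 0.24). Fos (0.17, SE 0.36, adjusted p = 0.66) and Jun (-0.28, SE 0.45, adjusted p = 0.77) spread widely with food, where food 1 was highest for both, at 148 and 35.3 TPM. Of 19 immediate early genes tested, 1, Dusp1, was called, against 0.265% of all genes called higher. The test was also not passed by Klf2 (-0.25, adjusted p = 0.50), Klf4 (-0.22, adjusted p = 0.44), Myc (0.08, adjusted p = 0.77), Slc2a1 (-0.27, adjusted p = 0.46) and Ucp2 (0.22, adjusted p = 0.37). Of 48 interferon-stimulated genes 0 passed, 13 were lower at an unadjusted p under 0.05, against 10.5% of all genes, and the library means of the list overlapped.

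Markers of other cells moved with the groups in part. Summed TPM was compared by a two-sided exact permutation test, for which 4 against 4 allows no p below 0.029. The 4 B cell genes tested of 18 summed to 982 to 1150.5 TPM with food and 747 to 934 TPM without it (exact permutation p = 0.029), most of it Ighm. The 7 erythroid genes tested of 14 summed to 51.1 to 82.5 and 85.5 to 145 TPM (exact permutation p = 0.029). The 5 macrophage genes tested of 15 summed to 227 to 252 and 256 to 294 TPM (exact permutation p = 0.029), most of it Adgre1 and Hmox1. Of these 5 genes 2 had a log2 fold change above 0 and 3 below, at a median of -0.06. Pecam1, the only 1 of 12 stromal and endothelial genes tested, lay at 21.2 to 28.7 and 15.6 to 20.0 TPM (exact permutation p = 0.029). Over 11 such lists, 4 reached that smallest p, and their part in the results above was not tested. The 26 classical monocyte genes (p = 0.057), 14 non-classical monocyte genes (p = 0.11), 13 neutrophil genes (p = 0.43) and 11 early progenitor genes (p = 0.17) did not pass the same exact permutation test. The 6 dendritic cell genes (p = 0.43), 2 eosinophil, basophil and mast cell genes (p = 0.20) and the 1 T and NK cell gene tested, Nkg7 (p = 0.37), did not either by exact permutation.

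In the 17 h experiment the fed libraries stood apart. Their median TPM was 15.5 to 17.2, against 34.5 to 37.1 in the fasted libraries of 17 h and 35.7 to 39.0 in the libraries of 4 h. With that, 89.5% of genes were called at 17 h (75.4% higher; after libraries were centred on their median, 77.3%, with 40.9% higher). Of 8844 genes in both experiments 88.0% differed between the fasts (72.6% after centring), so a call there says little of a single gene. Of the 7 glucocorticoid-induced genes called at 4 h, 6 were measured at 17 h, and all 6 were higher in the fast, or 5 of them after centring. Values as deposited and after centring are given for each gene, since several calls turn between them. Fkbp5 was higher at 17 h by 3.41 on the log2 scale, and by 2.32 after centring, and its effect at 4 h minus that at 17 h passed both ways (-2.24, adjusted p = 4.3e-07, and -1.09, adjusted p = 0.0011). Tsc22d3 was higher by 2.27 and 1.18, and its difference between the fasts passed only without centring (-1.22, adjusted p = 0.0017, and -0.08, adjusted p = 0.83). For Nfkbia the direction at 17 h turned with the scaling, from 0.70 (adjusted p = 0.0034) to -0.39 (adjusted p = 0.076), and its difference between the fasts passed only after centring (0.33, adjusted p = 0.13, and 1.48, adjusted p = 1.1e-05). Fdps was lower by both scalings, at -0.71 and -1.80, and its difference between the fasts passed only after centring (-0.04, adjusted p = 0.89, and 1.11, adjusted p = 6.2e-04). The same held for Idi1, at -0.40 and -1.49 (-0.31, adjusted p = 0.14, and 0.84, adjusted p = 0.0011). Insig1 was higher at 17 h by both scalings, at 1.68 and 0.58, and its difference passed both ways (-2.23, adjusted p = 1.1e-09, and -1.09, adjusted p = 3.5e-06).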

How the data were processed

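The deposited values were read as TPM summed to genes; per the submitters' processing notes the authors used kallisto 0.44.0 and GRCm38. The unit was read from the values, which are not whole and sum to 992340 to 993787 per library, and they could also be counts divided by the library total without a length correction. The summing of transcripts, the filter that left 9449 genes and any use of strand are unstated in the sources used here. After 15 symbols mangled into dates were dropped, 9434 genes remained, of which 9428 had a mean of at least 1 TPM. A count test was not used, since the files hold no counts. Reads per library, and so counting error, are unknown.

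Groups were compared with limma 3.58.1 (R 4.3.3) on log2(TPM + 1), with a trend of variance on mean, robust empirical Bayes and Benjamini-Hochberg adjustment over all tested genes at 0.05. The log2 fold changes are on that scale, which understates changes of low genes. The 17 h libraries and the difference between the fasts were fitted likewise. The fits were tested on simulated data. Named genes are the 15 highest called genes with separate groups and at least 10 TPM, and the 13 called lower that met these limits. Also named are up to 4 called members of each list with several, 34 key genes and the 8 largest differences between the fasts. Of the key genes, 28 were tested, and Ccl2, Il1b, S100a8, Pdk4, Ppara and Slc2a3 are not analysed here. Some genes named by the rule are not reported here. The members and the 54 gene lists were chosen with earlier results of these data known. Marker sums were compared by exact permutation (scipy 1.17.1).

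Alternatives were quantile normalization, a pseudocount of 0.1, no filter, a mean of at least 10 TPM, no trend, no robust step, the replicate number as a block, all 15 marrow libraries in 1 fit and each library left out. Chosen after the data were seen were removal of the trend on median transcript length (a loess of span 0.5, lengths from GENCODE M21) and fast 1 as the only fast library. Promoters are RefSeq windows of 300 bases, found for 32 of the 40 called genes.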

Additional observations from a re-analysis of the deposited data

Results flagged for a closer look

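Among the named genes, 128 groups of 4 libraries were looked at for 1 library far from the others, and 6 had one. Chance gives about 1 group in 20. Timm8b was at 3.408 TPM in food 1 and listed at 0 in the other food libraries. Sult1a1 was at 26.34 TPM in fast 2, against 12.9 to 14.3 TPM in the other fast libraries. Oxct1 was at 109.0 TPM in food 4, against 102.5 to 103.1 TPM. Klf4 was at 45.82 TPM in fast 2, against 61.4 to 62.3 TPM. Hist1h2ap was listed at 0 in fast 1, against 357.9 to 412.8 TPM. Atp5l was at 1.859 TPM in food 2 and listed at 0 in the other food libraries.

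The effect of the fast at 4 h minus that at 17 h passed the limma test of the difference for the 11 named genes given here, on values that were not centred. Since the fed 17 h libraries stand apart, 88.0% of all genes passed it. The difference was -1.453 for Dusp1 (-0.31 after centring, adjusted p = 0.59), -2.239 for Fkbp5 and -2.231 for Insig1. It was positive for short transcripts listed at or near 0 in food libraries of 4 h, at 6.194 for Timm8b, 11.02 for Hist1h2ap, 10.28 for S100a4, 8.515 for S100a11 and 7.77 for Atp5l. It was also positive for Cd52 at 7.453, Rps12-ps3 at 6.929 and Pin4 at 5.967.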

How the results depend on the processing

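The 40 calls became 14 to 145 when 1 library was left out, lowest without food 2 and highest without fast 1. Other libraries left out gave 27 (food 1), 15 (food 3), 32 (food 4), 24 (fast 2), 18 (fast 3) and 26 (fast 4). With all 15 marrow libraries in 1 fit 72 genes were called, and with fast 1 as the only fast library 6 were, in a fit that assumes the lone library to vary like the food group. With the replicate number as a block 27 genes were called (21 higher, 6 lower), 20 of them among the 40. Same-numbered libraries did not deviate together (r from -0.34 to -0.05 across genes), which gave no sign of pairing by number. So few correlations cannot exclude it. Counts under quantile normalization (33), centring (31), a pseudocount of 0.1 (39), no filter (40), at least 10 TPM (31), no trend (27), no robust step (36) and removal of the length trend (31) were within 1.5 times the main count. For the difference between the fasts, 7782 genes were called, 7705 to 7777 with a library left out. No direction of a call at 4 h turned. Directions of the difference between the fasts did turn with centring for some named genes. For Hp it went from -0.47 (limma adjusted p = 0.0011) to 0.67 (adjusted p = 3.2e-04). For Nr3c1 it went from -0.87 (adjusted p = 3.5e-06) to 0.28 (adjusted p = 0.035). Depth is unknown, and 4 libraries a group limit the precision.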
